A study of Mus musculus with 3 samples.

Results

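The genes described here belong to the fusion and osteoclast-type program of macrophages. They are 10 genes of the 31053 in the count tables: Dcstamp, Ocstamp, Cdh1, Atp6v0d2, Acp5, Nfatc1, Tnfrsf11a, Siglec15, Itgb3 and Kcnn4. They were taken as listed symbols, each of which matched 1 gene row. The list was chosen by measured values of the same libraries, namely levels in Trem2 macrophages of the graft and the ratio of vitamin D3-treated to untreated cultured macrophages. Member counts in those contrasts are therefore a description, and nothing is supported with them.

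The study grafted human skin under the skin of mice and cultured mouse macrophages, and sequenced single cells on the 10x platform. Co-Mac was a culture of bone marrow cells from C57/BL6 mice, grown in GM-CSF until day 7 with no further treatment. VD-Mac was the same kind of culture exposed to 1 µM VD3 (vitamin D3) for 24 h. hSTSG held cells recovered from human split-thickness skin grafts, 14 days after subcutaneous placement in C57BL6/J mice, with 5 mice pooled. Each condition was 1 library, so no replicate error and no test exists for any difference below. The graft library also carried 1195935 hashtag UMIs, but no map from hashtag to mouse was used, so the mice were not separated. A UMI (unique molecular identifier) marks 1 captured transcript molecule.

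Co-Mac held 7866 barcodes and 136905324 gene UMIs, VD-Mac 9794 and 124731240, and hSTSG 2644 and 24472168. Barcodes with at least 300 genes, fewer than 100000 gene UMIs and under 10% mitochondrial UMIs were kept. This left 7257 cells of Co-Mac with a median of 15804 UMIs, 8825 of VD-Mac with 12089 and 2144 of hSTSG with 6637.5. Levels are given as CPM, the UMIs of a gene in every 1000000 gene UMIs of the pooled cells. All intervals are exact 95% intervals and cover counting error only. Where a count was 0, the limit given is the value that 3 counts would have had, not the end of an exact interval. Rose and fell mean a difference of at least 2-fold with at least 10 CPM in the higher group. The reads come from transcript ends and were not scaled by length, so levels of members are compared only within a gene. Most abundant, said of a marker, means the most UMIs in its set. Co-Mac and VD-Mac shared 15 kept barcodes, Co-Mac and hSTSG 3, and VD-Mac and hSTSG 6.

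Macrophages of the monocyte lineage can fuse into osteoclasts in bone and into giant cells around foreign material. The membrane proteins DC-STAMP and OC-STAMP and the adhesion protein E-cadherin serve the joining of membranes, while RANK (Tnfrsf11a) and the transcription factor NFATc1 drive the osteoclast fate. The fused osteoclast pumps acid through its vacuolar proton pump, secretes tartrate-resistant acid phosphatase (Acp5) and holds to its surface through the beta-3 integrin.

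The labels were checked against marker genes. Cyp24a1, the vitamin D-degrading enzyme induced by vitamin D, had 1 UMI in Co-Mac and 36662 in VD-Mac, a log2 ratio of 15.35 (12.87 to 20.65). Vdr, the vitamin D receptor, rose from 51.1 to 135 CPM. Trem2, a lipid-sensing receptor, rose from 157 to 343 CPM. The 10 macrophage markers summed to 967 CPM in Co-Mac, 1176 in VD-Mac and 8032 in hSTSG, with C1qb most abundant in the cultures and Apoe in the graft. Markers of other lineages were also present in the cultures: 7 mature dendritic cell markers summed to 2354 and 2530 CPM and 8 neutrophil markers to 5310 and 6093 CPM. The cultures were thus mixed, and clusters were named from markers with the suffix -like. Keratinocyte markers summed to 6.75 CPM in Co-Mac, 4.08 in VD-Mac and 10.4 in hSTSG.

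At the level of whole libraries, 9 of the 10 genes had at least 1 UMI in each, and 7, 4 and 7 reached 10 CPM in Co-Mac, VD-Mac and hSTSG. Dcstamp (ENSMUSG00000022303), the fusion receptor, stood at 59.9 CPM (58.6 to 61.2) in Co-Mac, 24.5 (23.6 to 25.4) in VD-Mac and 9.67 (8.43 to 11.0) in hSTSG. Ocstamp (ENSMUSG00000027670), its paralog, stood at 2.42 CPM (2.16 to 2.70), 0.206 (0.132 to 0.307) and 6.58 (5.57 to 7.72) in the same order. Dcstamp was thus highest in the untreated culture, whereas Ocstamp was highest in the graft. Cdh1 (ENSMUSG00000000303), the gene of E-cadherin, measured 50.5 CPM (49.3 to 51.8) in Co-Mac, 2.50 (2.22 to 2.80) in VD-Mac and 54.1 (51.1 to 57.3) in hSTSG. Its partners Ctnnb1 and Ctnnd1, the beta and p120 catenins, measured 91.1, 93.8 and 277 CPM and 31.9, 26.0 and 43.5 CPM.

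Among the signalling genes, Tnfrsf11a (ENSMUSG00000026321) measured 35.5 CPM (34.5 to 36.6) in Co-Mac, 40.6 (39.5 to 41.8) in VD-Mac and 14.7 (13.2 to 16.4) in hSTSG. Nfatc1 (ENSMUSG00000033016) measured 18.8 (18.1 to 19.6), 16.5 (15.7 to 17.2) and 39.0 CPM (36.5 to 41.7). Kcnn4 (ENSMUSG00000054342), a calcium-activated potassium channel, measured 73.3 (71.9 to 74.8), 4.92 (4.53 to 5.34) and 60.8 CPM (57.6 to 64.1). Siglec15 (ENSMUSG00000091055), a sialic acid receptor of osteoclasts, had no UMI in any kept cell. That allows at most 0.0226 CPM in Co-Mac, 0.0258 in VD-Mac and 0.132 in hSTSG. Its signalling adaptor Tyrobp measured 1048, 918 and 1049.6 CPM. The RANK ligand gene Tnfsf11 had 0, 1 and 261 UMIs, and in the graft 145 of them lay in T cell-like cells and 108 in fibroblast-like cells.

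The effectors were highest in the graft. Atp6v0d2 (ENSMUSG00000028238), the d2 subunit of the proton pump, measured 58.9 CPM (57.6 to 60.2) in Co-Mac, 71.4 (69.9 to 72.9) in VD-Mac and 98.4 (94.4 to 102.6) in hSTSG. Acp5 (ENSMUSG00000001348) measured 22.8 (22.0 to 23.7), 9.63 (9.08 to 10.2) and 149 CPM (144 to 154). Itgb3 (ENSMUSG00000020689), the beta-3 integrin, measured 1.10 (0.930 to 1.30), 2.26 (1.99 to 2.55) and 45.8 CPM (43.0 to 48.7). Its partner Itgav measured 15.0, 10.9 and 122 CPM. Among genes of the mature osteoclast, the protease gene Ctsk measured 1.97, 0.309 and 258 CPM, and Calcr, the calcitonin receptor gene, had no UMI. Car2, carbonic anhydrase 2, measured 29.4, 15.5 and 21.3 CPM, and the receptor gene Oscar had 3, 9 and 5 UMIs.

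**Figure D1:**
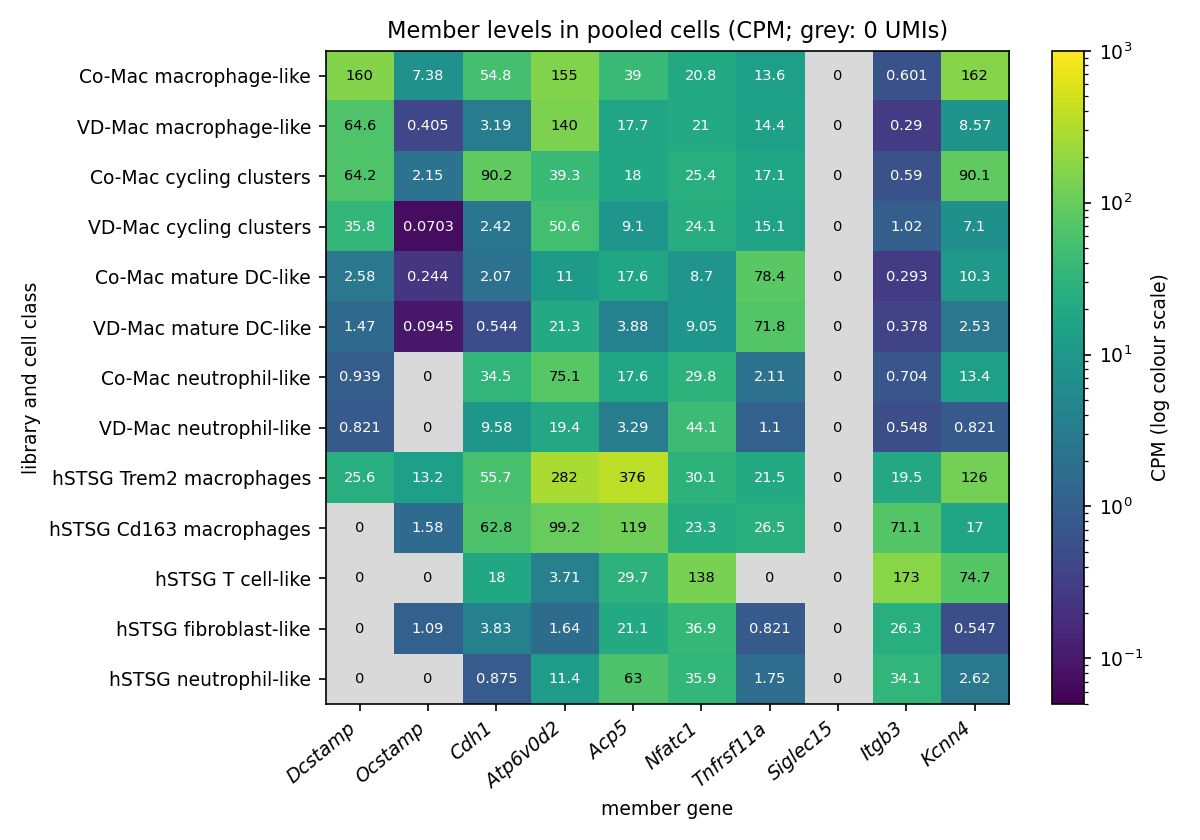
Heat map of the level of each gene (columns) in selected cell classes of each library (rows), in CPM on a log colour scale, with grey for 0 UMIs. Other classes, such as the graft monocytes and the basophil or mast-like culture cells, are not drawn. Acp5 reaches 376 CPM and Atp6v0d2 282 CPM in the Trem2 macrophages of the graft, and the Siglec15 column is grey throughout.

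The first comparison asked how the program differed between vitamin D3-treated and untreated cultures. Over all kept cells, Cdh1 and Kcnn4 fell the most, Dcstamp and Acp5 also fell, and Atp6v0d2, Nfatc1 and Tnfrsf11a did not pass 2-fold. Cdh1 went from 6699 to 291 UMIs, a log2 ratio of −4.34 (−4.51 to −4.17), and Kcnn4 from 9722 to 573 UMIs, −3.90 (−4.02 to −3.78). Dcstamp went from 7943 to 2853 UMIs, −1.29 (−1.35 to −1.23), and Acp5 from 3029 to 1122 UMIs, −1.25 (−1.35 to −1.15). Across 11 alternatives the Dcstamp ratio lay between −2.24 and −1.09. Of the 7 members that reached 10 CPM in either culture, 0 rose, against 2.16% of all 7732 genes tested. In the other direction 4 fell, against 4.63% of all genes. The median log2 ratio was −1.25 for these 7 and −0.10 for all genes tested. Relative to that shift of all genes, the ratios were −4.24 for Cdh1, −3.80 for Kcnn4, −1.19 for Dcstamp and −1.14 for Acp5.

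The members that did not pass were close to level. Atp6v0d2 had a log2 ratio of 0.28 (0.23 to 0.32), Tnfrsf11a 0.19 (0.13 to 0.25) and Nfatc1 −0.19 (−0.28 to −0.11). The Atp6v0d2 ratio was −0.27 when cells at or above 5% mitochondrial UMIs were left out. Ocstamp stayed below 10 CPM in both cultures, with 321 UMIs in Co-Mac and 24 in VD-Mac, a ratio of −3.55 (−4.22 to −2.96). Itgb3 was also below 10 CPM, with 146 and 263 UMIs, and 79 of the 263 came from 1 cell.

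Macrophage-like cells of the cultures numbered 1049 in Co-Mac, with a median of 20346 UMIs, and 1046 in VD-Mac, with a median of 14885. Culture cluster 6 held 1047 of the former and culture cluster 7 held 1041 of the latter, so library and cluster cannot be told apart. In these cells the same genes fell: Dcstamp from 160.3 to 64.6 CPM, Cdh1 from 54.8 to 3.19, Acp5 from 39.0 to 17.7 and Kcnn4 from 162 to 8.57. The log2 ratios were −1.31 (−1.41 to −1.21) for Dcstamp and −4.10 (−4.52 to −3.71) for Cdh1. They were −1.14 (−1.34 to −0.96) for Acp5 and −4.24 (−4.49 to −4.01) for Kcnn4. Of 7 members tested 0 rose, against 4.66% of 7536 genes, and 4 fell, against 6.06%. The median was −1.14 for the members and −0.06 for all genes tested.

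Atp6v0d2, Nfatc1 and Tnfrsf11a did not pass 2-fold in macrophage-like cells. Atp6v0d2 measured 155 CPM in Co-Mac and 139.9 in VD-Mac, a ratio of −0.15 (−0.23 to −0.08). Nfatc1 measured 20.8 and 21.0 CPM, and Tnfrsf11a 13.6 and 14.4 CPM. The Tnfrsf11a ratio was 0.08, and 0.83 with a coarser clustering (resolution 0.3). Ocstamp had 172 and 7 UMIs, a ratio of −4.19 (−5.52 to −3.11) below 10 CPM. Under 5% mitochondrial UMIs it stood at 14.1 CPM in Co-Mac and had 0 UMIs in VD-Mac. In the same cells Trem2 rose from 277 to 792 CPM and Vdr from 34.0 to 169 CPM.

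In macrophage-like cells Acp5 was lower in VD-Mac at or above 5% mitochondrial UMIs but not under 5%. Over all kept cells its ratio lay between −1.33 and −1.14 in 11 alternatives. Macrophage-like cells under 5% mitochondrial UMIs, 169 in Co-Mac and 87 in VD-Mac, held Acp5 at 25.4 (20.5 to 31.1) and 27.5 CPM (19.4 to 37.9). At or above 5%, with 880 and 959 cells, Acp5 stood at 41.6 and 16.8 CPM. Dcstamp was lower in VD-Mac in both sets, at 168 against 44.6 CPM and 159 against 66.3 CPM. The part of the mitochondrial share in the Acp5 ratio was not tested.

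**Figure D2:**
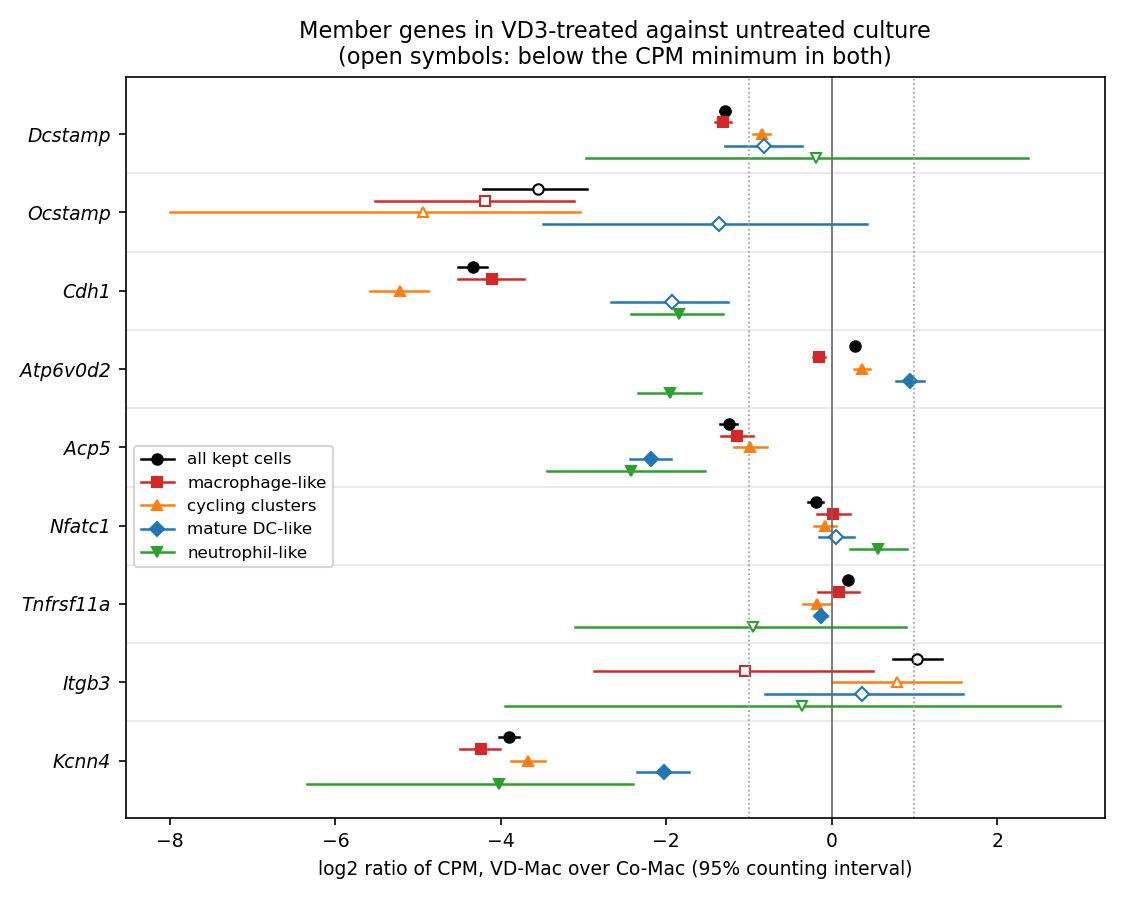
Points are log2 ratios of VD-Mac over Co-Mac for 9 genes in 5 cell sets, with 95% counting intervals as bars, open symbols where both levels are below 10 CPM and dotted lines at 2-fold. Kcnn4 lies between −4.24 and −2.03 in all sets, whereas Atp6v0d2 lies at 0.95 in mature dendritic-like and at −1.95 in neutrophil-like cells.

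Proliferating cells numbered 1647 in Co-Mac, 1606 of them in culture cluster 3, and 1155 in VD-Mac, 1142 of them in culture cluster 5. There Cdh1 fell from 90.2 to 2.42 CPM, −5.22 (−5.58 to −4.88), and Kcnn4 from 90.1 to 7.10 CPM, −3.67 (−3.88 to −3.46). Dcstamp (−0.84) and Acp5 (−0.98) did not pass 2-fold. Of 7 members 0 rose, against 3.07% of 7942 genes, and 2 fell, against 4.6%.

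Mature dendritic-like cells numbered 2634 in Co-Mac, 2626 of them in culture cluster 1, and 2951 in VD-Mac, 2936 of them in culture cluster 0. They had Acp5 at 17.6 and 3.88 CPM and Kcnn4 at 10.3 and 2.53 CPM. Both fell, by log2 ratios of −2.18 (−2.44 to −1.94) and −2.03 (−2.35 to −1.72). These were 2 of 4 members tested, against 2.72% of 6618 genes, and 0 rose, against 2.04%. Tnfrsf11a reached its highest culture levels here, at 78.4 and 71.8 CPM.

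Neutrophil-like cells, from culture cluster 2 in both libraries (884 and 1028 cells), showed falls of Cdh1, Atp6v0d2, Acp5 and Kcnn4. These were 4 of 5 members tested, against 2.29% of 7627 genes, and 0 rose, against 1.63%. Atp6v0d2 went from 75.1 to 19.4 CPM, −1.95 (−2.34 to −1.57), and Cdh1 from 34.5 to 9.58 CPM, −1.85 (−2.42 to −1.31). Kcnn4 had 57 and 3 UMIs, a ratio of −4.03 (−6.35 to −2.41). These cells had medians of 2786.5 and 2683 UMIs, and how many of those came from RNA outside the cell was not tested. Trem2 fell in them from 238 to 118 CPM.

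Culture clusters 8 and 11 belonged mostly to 1 culture and carried markers of both dendritic cells and Trem2 macrophages, so they are given by number. Culture cluster 8 (720 cells of VD-Mac, 3 of Co-Mac, with Cd36, Ccl17 and Gpnmb among its leading genes) held Atp6v0d2 at 180.2 CPM in VD-Mac and Dcstamp at 32.1 CPM. Culture cluster 11 (237 cells of Co-Mac, 1 of VD-Mac, led by Inhba and Cav1) held Atp6v0d2 at 168 CPM, Dcstamp at 86.4 and Kcnn4 at 82.4 in Co-Mac. Culture cluster 12, with the dendritic markers Itgae and Clec9a among its leading genes, held cells of both cultures, 79 of Co-Mac and 118 of VD-Mac, with Cdh1 at 166 and 19.6 CPM. Itgb3 was highest in the basophil or mast-like cells, at 117 CPM (92.2 to 146) in 59 cells of Co-Mac and 264 CPM (228 to 304) in 75 of VD-Mac. In VD-Mac 79 of these 190 UMIs lay in 1 cell. Those cells also carried 6 megakaryocyte markers summing to 11761 and 9016 CPM, with Pf4 most abundant. The part of such transcripts in the Itgb3 level was not tested.

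The next comparison asked where the program lay in the graft. Trem2 macrophages were 316 cells, all of lineage cluster 0, with a median of 16900.5 UMIs. The members had been left out of the genes used for clustering. The Trem2 marker set summed to 37031.5 CPM in them, with Spp1 most abundant, and the 8 T cell markers to 2.95 CPM. Against the other 675 monocyte lineage cells, Dcstamp, Ocstamp, Atp6v0d2, Acp5 and Kcnn4 were at least 2-fold higher and Itgb3 was lower. These were 5 of 9 members tested, against 3.47% of 7526 genes, and 1 of 9, against 7.11%. Ocstamp passed through 1 cell, described below, and without that cell 4 were higher and 1 lower of 8 tested.

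Dcstamp measured 25.6 CPM in Trem2 macrophages (165 UMIs) and 1.79 in the other lineage cells (12 UMIs), a log2 ratio of 3.83 (2.99 to 4.82). In the 175 Cd163 macrophages, held by lineage clusters 3 and 4, Dcstamp had 0 UMIs, so its ratio to them was at least 4.43. Cdh1 measured 55.7 and 86.3 CPM, −0.63 (−0.83 to −0.44). The monocyte class of 329 cells held it unevenly, at 130 CPM (117 to 145) in lineage cluster 1 and 13.2 (6.01 to 25.0) in lineage cluster 5. Fusion genes thus did not share 1 pattern in the graft.

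Acp5 measured 376 CPM (361 to 391) in Trem2 macrophages and 85.2 in the other lineage cells, 2.14 (2.01 to 2.28). Atp6v0d2 measured 282 CPM (269 to 295) and 49.2, 2.52 (2.35 to 2.69). The Atp6v0d2 ratio was 0.75 when a finer clustering (resolution 0.8) gave 120 Trem2 macrophages against 871 other cells. Kcnn4 measured 126 CPM (117 to 135) and 37.2, 1.76 (1.55 to 1.97). These genes were lower in Cd163 macrophages, with Acp5 at 119 CPM (106 to 133), Atp6v0d2 at 99.2 (87.3 to 112) and Kcnn4 at 17.0 (12.3 to 22.9). Their lineage clusters 3 and 4 differed, with Atp6v0d2 at 138 and 17.2 CPM and Acp5 at 149.7 and 54.1 CPM. In the monocyte class Acp5 stood at 58.3 CPM (50.4 to 67.1) and Atp6v0d2 at 7.48 (4.84 to 11.0).

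Itgb3 measured 19.5 CPM (16.3 to 23.3) in Trem2 macrophages and 48.6 in the other lineage cells, −1.31 (−1.62 to −1.01). Among the others it stood at 101 CPM in lineage cluster 3, 54.9 in cluster 2 and 44.0 in cluster 1, but at 7.37, 4.38 and 11.1 in clusters 4, 5 and 6. With a coarser clustering (resolution 0.3) the ratio was −0.99 and no longer past 2-fold. Nfatc1 measured 30.1 and 20.8 CPM, 0.53 (0.21 to 0.86), and Tnfrsf11a 21.5 and 26.2 CPM, −0.28 (−0.61 to 0.05). Siglec15 had no UMI in the class, which allows at most 0.465 CPM. Vdr measured 17.2 CPM in Trem2 macrophages and 97.9 in the other lineage cells.

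**Figure D3:**
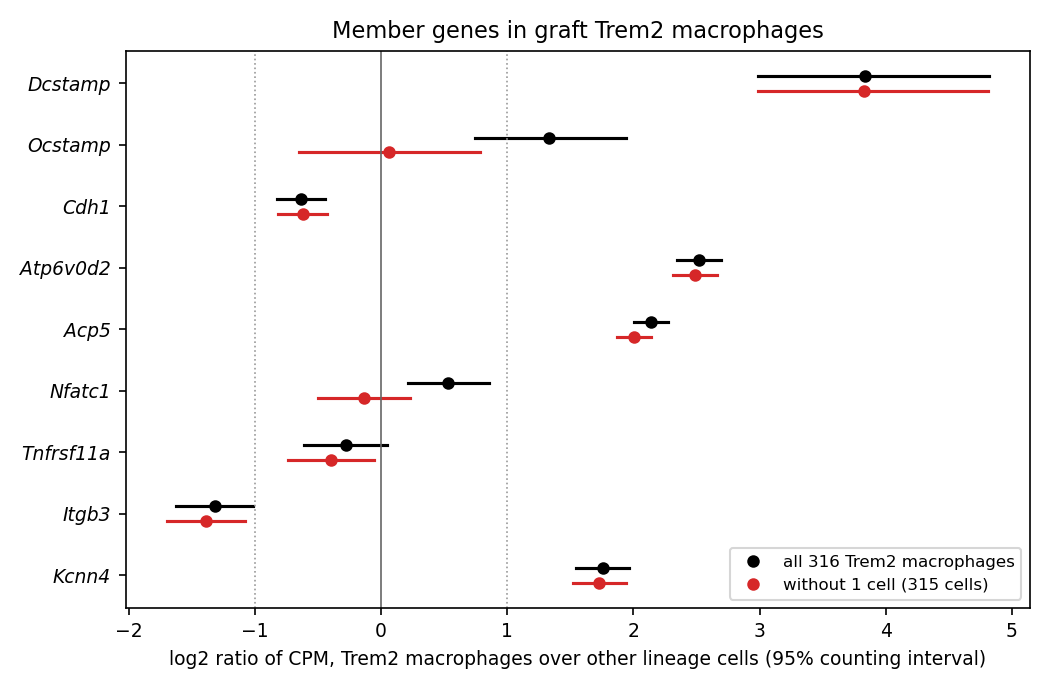
Points are log2 ratios of graft Trem2 macrophages over the other 675 monocyte lineage cells for each gene, with 95% counting intervals as bars, for all 316 cells (black) and without 1 cell (315 cells, red). Ocstamp moves from 1.33 to 0.07 and Nfatc1 from 0.53 to −0.13, while Dcstamp lies at 3.83 in both.

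Ocstamp rested on a single cell. It had 85 UMIs in Trem2 macrophages and 35 in the other lineage cells, a ratio of 1.33 (0.75 to 1.94), but 50 of the 85 came from 1 cell. Without that cell Ocstamp measured 5.48 CPM, with a ratio of 0.07 (−0.65 to 0.79). The same cell held 73 of the 194 Nfatc1 UMIs, 238 of the 2425 Acp5 UMIs, 474 Ctsk UMIs and 274 of the 414 Mmp9 UMIs. Ctsk and Mmp9 encode matrix-degrading proteases of osteoclasts. The cell had 67748 UMIs, 7331 genes and 6.00% mitochondrial UMIs, and it held 2 Dcstamp, 3 Trem2 and 3 Gpnmb UMIs. Cd3e, Cd79a, Col1a1, Krt5 and Cd163 were at 0 in it. Its Scrublet doublet score was 0.0191. Beyond that score, whether its barcode held more than 1 cell or nucleus was not tested.

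The largest graft barcodes were set aside by the UMI limit. They had 110613 and 205553 UMIs, with 2.82% and 1.90% mitochondrial UMIs. They held 38 and 203 Atp6v0d2 UMIs, 70 and 163 Acp5 UMIs and 4418 and 23306 Spp1 UMIs. The latter barcode held 2 Siglec15 UMIs, the only ones among all graft barcodes. Dcstamp, Ocstamp and Itgb3 were at 0 in both.

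Outside the lineage, T cell-like cells of the graft (300 cells of graft clusters 4 and 6, median 5552 UMIs) held the highest Itgb3 level of the graft, 173 CPM (155 to 193). Nfatc1 measured 138 CPM (122 to 156) in them and Kcnn4 74.7 (62.9 to 88.1), whereas Tnfrsf11a had 0 UMIs. In lymphocytes NFATc1 follows calcium signals and the Kcnn4 channel supports calcium entry. Itgb3 stood at 147 and 215 CPM in clusters 4 and 6, and Nfatc1 at 186 and 58.9. The 6 megakaryocyte markers summed to 17.5 CPM in T cell-like cells, with Ppbp, Gp9, Gp1bb and Gp6 at 0. Tnfrsf11a was highest in the 33 mature dendritic-like cells of the graft, at 93.4 CPM (67.3 to 126). Graft cluster 8 (116 cells, led by Igkc, Ighm and Cd209a) held 42 Dcstamp UMIs in 6 cells, and 32 of the 42 lay in 1 cell. Those 42 were among 1782310 UMIs, where Trem2 macrophages had 165 among 6450723. Graft cluster 8 was not part of the other monocyte lineage cells, so the Dcstamp ratio above does not include it.

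To set cells of unlike depth side by side, detection was counted in a draw of 2000 UMIs per cell, called thinned below, and 2 Trem2 macrophages were too shallow for it. Acp5 was found in 36.0% of the 314 remaining (30.7 to 41.6), Atp6v0d2 in 33.1% (27.9 to 38.6) and Kcnn4 in 16.6% (12.6 to 21.1). Dcstamp was found in 3.50% (1.76 to 6.18) and Ocstamp in 0.637%. Unthinned, the shares were 76.6%, 64.9%, 61.1%, 14.2% and 5.70%. Fibroblast-like cells, at a median of 25010.5 UMIs, gave Acp5 in 4.26% of 141 thinned cells and Atp6v0d2 and Kcnn4 in 0, which allows up to 2.13% in thinned cells. Before thinning, 30.6% of fibroblast-like cells had an Acp5 UMI, 4.17% an Atp6v0d2 UMI and 1.39% a Kcnn4 UMI.

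In cultured macrophage-like cells detection of Dcstamp and Kcnn4 was lower in VD-Mac, as their levels were. After thinning, Dcstamp was found in 23.8% (21.3 to 26.5) in Co-Mac and 9.37% (7.67 to 11.3) in VD-Mac, and Kcnn4 in 25.5% (22.9 to 28.3) and 1.24% (0.663 to 2.12). Nfatc1 was found in 4.10% (2.98 to 5.48) and 5.54% (4.24 to 7.11), and Tnfrsf11a in 2.67% (1.78 to 3.83) and 3.06% (2.10 to 4.29). Atp6v0d2 was found in 227 of 1049 thinned cells of Co-Mac and in 164 of 1046 of VD-Mac. Unthinned, the shares were 70.9% and 33.7% for Dcstamp and 88.6% and 9.08% for Kcnn4. Mature dendritic-like cells, with medians of 14487 and 13282 UMIs, had Dcstamp in 0.418% and 0.374% and Kcnn4 in 2.20% and 0.544% after thinning.

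Within Trem2 macrophages the genes were spread unequally. The 32 cells with the most UMIs of each gene held 92.1% of Dcstamp, 49.4% of Acp5, 48.0% of Atp6v0d2 and 45.7% of Kcnn4. Such shares rise when UMIs are few, and Dcstamp had 165 UMIs against 2425 of Acp5. Members nearer to Dcstamp in UMIs gave 60.4% (Tnfrsf11a, 139 UMIs), 77.0% (Itgb3, 126) and 68.6% (Nfatc1, 194). Dcstamp had UMIs in 45 cells, and its highest cell held 26 of 165. In a finer clustering, cluster 1 had less Dcstamp than clusters 3 and 4, but the other genes did not all follow Dcstamp. Cluster 1 (150 cells) had Dcstamp at 2.67 CPM, Kcnn4 at 77.2 and Ctsk at 179. Cluster 3 (104 cells) had them at 45.4, 207 and 1043 CPM. Cluster 4 (61 cells) had Dcstamp at 45.7 CPM, but Kcnn4 at 63.8, Ctsk at 339, Cdh1 at 135 and Nfatc1 at 7.44. Atp6v0d2 stood at 309.7 CPM in cluster 1, 241 in cluster 3 and 304 in cluster 4. Cluster 3 holds the Ocstamp-rich cell named above.

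The levels of Acp5 and Atp6v0d2 also moved with depth. In 4 depth groups of 79 Trem2 macrophages, with medians of 8497, 14287, 20783 and 33351 UMIs, Acp5 stood at 188, 203, 351 and 495 CPM. Atp6v0d2 stood at 145, 182, 242 and 370.3 CPM, and Cdh1 at 103, 70.4, 60.3 and 37.3 CPM. The deepest group held the Ocstamp-rich cell, with 238 of the group's 1487 Acp5 UMIs and 55 of its 1113 Atp6v0d2 UMIs. Kcnn4 and Itgb3 showed no such order, Kcnn4 at 120.5, 101, 122 and 138 CPM and Itgb3 at 15.4, 26.7, 30.4 and 11.6. The part of depth or cell size in these levels was not tested.

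Pairs of members were counted in the same thinned cell, and differences between the shares were not tested. Among Trem2 macrophages with an Atp6v0d2 UMI, 47.1% of 104 had Acp5 (37.2 to 57.1), compared with 30.5% of the 210 without (24.3 to 37.2). Among VD-Mac macrophage-like cells, Atp6v0d2 was found in 45.7% of those with Acp5 and 14.6% of those without. In Co-Mac the shares were 36.6% and 20.4%. Dcstamp was found in 11.5% of the 52 Trem2 macrophages with Kcnn4 (6 cells, 4.35 to 23.4) and 1.91% of those without (0.622 to 4.40). These intervals overlapped. In VD-Mac macrophage-like cells Atp6v0d2 was found in 31.6% of those with Dcstamp (22.6 to 41.8) and 14.0% of those without (11.9 to 16.4). In Co-Mac the shares for that pair were 18.8% (14.2 to 24.2) and 22.5% (19.7 to 25.6). Cdh1 was found in 13.5% of Trem2 macrophages with Atp6v0d2 (7.56 to 21.6) and 13.3% of those without (9.05 to 18.7). In other pairs the share was lower in cells with the gene, with overlapping intervals. Acp5 was found in 19.0% of Trem2 macrophages with Cdh1 (8.60 to 34.1) and 38.6% of those without (32.8 to 44.7). Dcstamp was found in 0.885% of those with Acp5 (0.0224 to 4.83) and 4.98% of those without (2.41 to 8.96). For that last pair the shares in VD-Mac were 17.1% (6.56 to 33.6) and 9.10% (7.40 to 11.0), with overlapping intervals. In Co-Mac they were 23.2% and 23.9%.

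The wider pathway list held 111 genes of osteoclast signalling, fusion, adhesion, acid secretion and resorption. Over all kept cells of the cultures, 88 were tested. Of these 6 rose, against 2.16% of all genes, and 10 fell, against 4.63%, with a median of −0.19 against −0.10. Adhesion and fusion genes gave 7 of the falls among 26 tested. They included Cd200r1, an inhibitory receptor (107 to 26.5 CPM), Itgam, the alpha-M integrin (198 to 52.4 CPM), and the adhesion receptor Cd44 (217 to 73.0 CPM). Cd36, a scavenger receptor (182 to 61.4 CPM), and the membrane protease gene Adam8 (144 to 57.1 CPM) fell as well. Among the rises were Ckb, creatine kinase B (62.2 to 241 CPM), Irf8, a repressor of osteoclast formation (133 to 307 CPM), and Rac2, a small GTPase (215 to 449 CPM). Orai1, a calcium channel, had a ratio of 0.86. Calcium and NFAT signalling genes gave no rise or fall among 8 tested. In macrophage-like cells 1 of 8 rose, against 4.66% of all genes, and in proliferating cells 1 of 8, against 3.07%.

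In macrophage-like cells 86 list genes were tested. Of these 7 rose, against 4.66% of all genes, and 8 fell, against 6.06%, with a median of −0.18 against −0.06. Jdp2, a partner of AP-1 factors, rose from 6.26 to 57.4 CPM, and Id2, an inhibitor of helix-loop-helix factors, fell from 810.3 to 114 CPM. Ckb (97.3 to 309.6 CPM), Irf8 (49.1 to 145 CPM) and Rac2 (259.8 to 659.8 CPM) also rose. Cd36 (496 to 89.9 CPM), Itgam (399 to 88.6 CPM), Cd200r1 (236 to 54.2 CPM) and Adam8 (193 to 55.4 CPM) also fell. Of 15 other V-ATPase subunits tested, 0 rose and 0 fell, with a median of −0.29. Atp6v0d1, the widely expressed counterpart of Atp6v0d2, measured 182 CPM in Co-Mac and 138 in VD-Mac macrophage-like cells.

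In the graft 95 list genes were tested in Trem2 macrophages against the other lineage cells. Of these 7 rose, against 3.47% of all genes, and 8 fell, against 7.11%, with a median of −0.20 against −0.16. Resorption effectors gave 3 rises among 10 tested. Ctsk rose from 57.6 to 539 CPM, 3.23 (3.07 to 3.38), and without the Ocstamp-rich cell its ratio was 3.03 (2.88 to 3.19). Mmp9 did not hold: its ratio without that cell was −0.31. Cd9, a tetraspanin, Cd36, Trem2 and the beta-2 integrin gene Itgb2 rose by log2 ratios of 2.46, 2.24, 2.04 and 1.55. Prdm1, a transcriptional repressor, fell with a log2 ratio of −1.62, Orai1 with −1.21, and the interleukin-4 receptor gene Il4ra with −1.15. Irf8 and the chemokine gene Ccl2 fell with −1.11 each. All 16 other V-ATPase subunits were tested, and 0 rose and 0 fell.

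Likeness of pattern was measured as the Pearson correlation of log2(CPM + 1) over 22 library and class combinations of at least 50 cells, among 11438 genes. The points share 3 libraries and differ in depth. Atp6v0d2 was most like Trem2 (0.892), Gpnmb (0.886) and Slc38a6 (0.829). Dcstamp was most like Uchl1 (0.873), Itgax (0.861) and Plet1 (0.843), and Acp5 most like Abca1 (0.902), Ms4a6d (0.867) and Mrc1 (0.864). Kcnn4 lay nearest to Ccr2 (0.837), Cdh1 to Ccdc134 (0.803), Ocstamp to Npy (0.906) and Itgb3 to Ets1 (0.918). Among the members themselves the highest correlation was 0.749, between Cdh1 and Kcnn4, and the lowest −0.792, between Nfatc1 and Tnfrsf11a.

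Promoter sequences were read from RefSeq for GRCm38.p6, as the 250 bases before each transcript start. They are shown for Kcnn4 and Acp5, which fell in the treated culture and were higher in Trem2 macrophages, and for Tnfrsf11a, which did not pass 2-fold in either. Promoters on 1 chromosome were left out before members were matched. Among those used, 3 of 10 members were matched, with 5 starts. Dcstamp, Ocstamp, Cdh1, Atp6v0d2, Nfatc1, Siglec15 and Itgb3 were not matched, which does not show that the promoter data lack them. The motifs searched on both strands were CACGTG, the E-box of the MITF and TFE family, held by 6.02% of 32851 promoters, and the M-box TCACATGA, held by 0.846%. The AP-1 motif TGANTCA was held by 6.75%, the NFAT core GGAAA by 55.6%, the PU.1 core GAGGAA by 23.3% and the vitamin D receptor repeat GGTCANNNGGTCA by 0.067%. Capitals mark CACGTG in the Kcnn4 window (chr7:24370013-24370262, plus strand) and TCACATGA in the Acp5 window (chr9:22130599-22130848, minus strand). That Acp5 window also held GGAAA at 2 places, left in lower case. The windows of the other 2 Acp5 starts held no TCACATGA and GGAAA at 1 place each. The Tnfrsf11a window (chr1:105780473-105780722, plus strand) held none of the 6 motifs.
Kcnn4: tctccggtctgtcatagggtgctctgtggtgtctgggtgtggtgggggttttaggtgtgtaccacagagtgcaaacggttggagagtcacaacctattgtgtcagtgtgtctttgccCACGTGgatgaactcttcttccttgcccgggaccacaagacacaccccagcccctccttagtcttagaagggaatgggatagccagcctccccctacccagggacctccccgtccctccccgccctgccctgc
Acp5: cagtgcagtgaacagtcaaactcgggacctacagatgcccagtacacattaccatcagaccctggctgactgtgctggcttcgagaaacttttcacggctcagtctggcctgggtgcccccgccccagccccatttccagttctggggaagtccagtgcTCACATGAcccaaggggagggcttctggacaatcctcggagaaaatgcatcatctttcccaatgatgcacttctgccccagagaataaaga
Tnfrsf11a: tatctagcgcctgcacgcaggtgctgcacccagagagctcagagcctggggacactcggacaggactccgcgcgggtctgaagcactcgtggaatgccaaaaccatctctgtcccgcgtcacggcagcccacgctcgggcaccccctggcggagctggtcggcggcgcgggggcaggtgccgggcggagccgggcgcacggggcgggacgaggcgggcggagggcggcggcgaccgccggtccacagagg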

How the data were processed

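The deposited files hold counts of UMIs per gene and barcode for 3 libraries. The submitters' processing notes name Cell Ranger, Seurat 3.1.1 and build mm9. Another note names a human build while the gene IDs are those of mouse, so no coordinates were used except RefSeq promoters. The members and lists were chosen with earlier results of these data known.

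Barcodes with at least 300 genes, under 100000 gene UMIs and under 10% mitochondrial UMIs were kept, and hashtag rows were left out. This removed 609 barcodes of Co-Mac, 969 of VD-Mac and 500 of hSTSG. Both cultures jointly, the graft, and its monocyte lineage were clustered in Seurat 5.3.0 under R 4.3.3 (scale 10000, 2000 variable features without members and list genes, 15 principal components, 15 neighbors, resolution 0.5). Clusters were named from marker sets. Counts were pooled per class in Python 3.11.15 with numpy 2.4.6, scipy 1.17.1 and pandas 2.3.3, and plotted with matplotlib 3.10.9. Levels carry exact Poisson intervals, shares Clopper-Pearson intervals and ratios conditional binomial intervals. No test was run, as each condition was 1 library. The interval code was checked on simulated data. Depth was 136905324, 124731240 and 24472168 gene UMIs.

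Scrublet in scanpy 1.11.5 called 1, 0 and 8 cells at its automatic threshold, which did not work as a doublet filter. As an alternative, the 421, 623 and 37 cells with the highest scores were removed. Other alternatives changed filters, scaling, thinning, fold minimum and clustering. The rule for named list genes takes the 5 largest rises and 5 largest falls per contrast at 50 CPM or more, and direct partners of members. It was followed in full for all kept cells, macrophage-like cells and the graft, and only in part for other classes.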

Additional observations from a re-analysis of the deposited data

Results flagged for a closer look

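Atp6v0d2 was flagged because its ratio of VD-Mac over Co-Mac took opposite directions in different cell classes. The log2 ratio was 0.95 in mature dendritic-like cells, with levels of 11.0 and 21.3 CPM, and −1.95 in neutrophil-like cells, with levels of 75.1 and 19.4 CPM. These are 2.90 apart. The difference was not tested.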

How the results depend on the processing

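Each condition was 1 library and the graft pooled 5 mice, so no alternative adds replicate error. No paired analysis was possible because no condition had replicates or matched samples. Over all kept cells of the cultures, 4 members were past 2-fold in 9 of 11 alternatives as in the report, 3 with a minimum of 50 CPM and 6 with no minimum. In macrophage-like cells the count was 4 in 11 of 14, 3 with a minimum of 50 CPM or with members and list genes kept for clustering, and 6 with no minimum. With a mitochondrial limit of 5% the 4 held Ocstamp in place of Acp5. In the graft it was 6 in 7 of 13, as in the report, but at resolution 0.8 Nfatc1 (1.13) took the place of Atp6v0d2 (0.75). The Ocstamp-rich cell held 73 of the 117 Nfatc1 UMIs in the 104 cells shared by both Trem2 classes. It was 5 with a mitochondrial limit of 5%, when thinned, at resolution 0.3, with members and list genes kept for clustering and without the Ocstamp-rich cell, and 3 with a minimum of 50 CPM. The pathway list count over all kept cells was 10 with a mean over cells and 25 with no minimum, in place of 16. In the graft it was 9 and 24, in place of 15. The cause was not tested.

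Ratios past 2-fold turned direction in 3 places. Acp5 in macrophage-like cells went from −1.14 to 0.11 with a mitochondrial limit of 5%. Ocstamp in the graft went from 1.33 to −0.51 with that limit and to −0.26 when thinned to 2000 UMIs. The 5% limit removes the Ocstamp-rich cell (6.00%), without which Ocstamp stood at 0.07. The rest of the shift was not tested. Among ratios not past 2-fold, Atp6v0d2 over all kept cells went from 0.28 to −0.27 with that limit and −0.01 with a mean over cells, and Tnfrsf11a from 0.19 to −0.06 with a mean over cells or Co-Mac class shares. In the graft Nfatc1 went from 0.53 to −0.28 with that limit and −0.13 without the Ocstamp-rich cell, and to 1.13 at resolution 0.8. Tnfrsf11a there went from −0.28 to 0.37 at resolution 0.8. In macrophage-like cells the ranges were −0.47 to 0.04 for Atp6v0d2 (−0.15 in the report), −0.15 to 0.40 for Nfatc1 (0.02) and −0.31 to 0.83 for Tnfrsf11a (0.08). Across alternatives, log2 ratios over all kept cells lay between −2.24 and −1.09 for Dcstamp, −4.37 and −3.69 for Cdh1 and −4.29 and −3.65 for Kcnn4. In the graft Dcstamp lay between 2.62 and 4.33, and at 4.43 or more against Cd163 macrophages only, which had 0 UMIs. The graft ranges were 1.45 to 2.25 for Acp5 and 1.04 to 2.89 for Kcnn4. Leaving out the Ocstamp-rich cell and applying Co-Mac class shares to the pathway list were chosen after seeing the data.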

Other observations

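Genes of the program that were not members showed their own distribution in the graft. Ctsk measured 517 CPM in fibroblast-like cells of the graft and 539 in Trem2 macrophages. Mmp9 measured 608 CPM in graft neutrophil-like cells and rose from 157 to 447 CPM in the neutrophil-like cells of the treated culture. Tnfrsf11b, the decoy receptor for RANK ligand, had 18, 17 and 26 UMIs in Co-Mac, VD-Mac and hSTSG.

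Lineage cluster 2 of the graft, 138 cells with a median of 1806.5 UMIs, was given no class name. The naming rule left out clusters with a low score and shallow clusters without a marker among their leading genes. These cells were counted among the other monocyte lineage cells. They held Acp5 at 154 CPM (116 to 199.7), Atp6v0d2 at 146 (109 to 190) and Cdh1 at 121 (87.8 to 162). Trem2 stood at 236 CPM in them, Lpl at 1346, Ctsk at 492 and Cd163 at 68.6, while Dcstamp had 0 UMIs.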
